A study of Mus musculus and Rattus norvegicus with 2 samples.

Results

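The miR-17-92 and miR-106b-25 clusters are 2 groups of microRNA (miRNA) genes that are each copied as 1 long transcript and cut into several mature miRNAs. Their mature forms were read in small RNA of sperm from the cauda epididymis, the end of the duct in which sperm are stored. Reads were counted as members when the authors had labelled them miR-17, miR-18a, miR-19a, miR-19b, miR-20a, miR-25, miR-92a, miR-93 or miR-106b, or when, under any label, they began with the same 18 nt as the most abundant sequence of such a name. This gave 10 mature miRNAs of 299 named in either species, 9 of them with reads in each library: the 9 listed names and the other arm of the first miR-92a gene, miR-92a-1-5p. There was 1 library of mouse sperm (strain C57BL/6, 2 months old) and 1 of rat sperm (strain Sprague Dawley, 450 g). Both held the fraction between 18 and 45 nt of Trizol-extracted RNA, sequenced on an Illumina GAIIx; the label calls the sperm purified, and how many animals were pooled is not stated in its labels. With 1 library per species there is no replicate check and no test. Intervals below are exact 95% intervals for counting error only, and copies made by PCR are not independent molecules, so the true error is larger. Species, strain, age and library cannot be told apart.

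A miRNA guides an Argonaute protein to messenger RNAs that pair with its seed, bases 2 to 8 from its 5′ end, and miRNAs with the same seed tend to share many targets. The miR-17-92 cluster, also called oncomir-1, is known for promoting cell proliferation and survival, and both clusters are transcribed in dividing cells; the seeds of miR-17, miR-19 and miR-25/92 recur in both clusters or in the related X-linked cluster miR-106a-363. In the testis these miRNAs are known from spermatogonia, while sperm themselves are transcriptionally silent and also take up small RNA during passage through the epididymis.

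The mature sequences show which members share a seed, which is in capitals; they come from the mouse entries of RefSeq (GRCm38.p6), and no rat reference was used here. The seed of miR-17, shared by miR-20a and miR-93, comes first, then those of miR-18, miR-19 and miR-25/92, and last that of the other arm of the miR-106b hairpin.
miR-17-5p: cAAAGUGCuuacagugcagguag
miR-20a-5p: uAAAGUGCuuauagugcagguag
miR-93-5p: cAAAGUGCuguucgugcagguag
miR-18a-5p: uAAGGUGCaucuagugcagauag
miR-19a-3p: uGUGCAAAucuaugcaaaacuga
miR-19b-3p: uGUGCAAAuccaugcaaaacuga
miR-25-3p: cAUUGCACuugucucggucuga
miR-92a-3p: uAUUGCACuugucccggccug
miR-106b-3p: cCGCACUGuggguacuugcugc

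In the mouse genome (GRCm38, GENCODE M21) the 6 hairpins of miR-17-92 span 836 nt, chr14:115043671-115044506 on the plus strand, in an exon of the long non-coding RNA gene Mir17hg. The 3 hairpins of miR-106b-25 span 498 nt, chr5:138165321-138165818 on the minus strand, within Mcm7, which encodes a subunit of the replicative DNA helicase. None lies in an exon of the 7 protein-coding Mcm7 transcripts, in which the pairs of hairpin and transcript were intronic in 6 cases and outside the transcript in 15. Among the 3 other Mcm7 transcripts, classed as retained intron, 1 has the hairpins of miR-93 and miR-25 in an exon. Identical mature miR-19b-3p and miR-92a-3p are also made from a second copy each in miR-106a-363, chrX:52741693-52742567 on the minus strand, so their reads cannot be assigned to 1 copy by the mature sequence alone.

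The deposited tables listed 714352 reads in 89179 sequences for the mouse and 2102735 reads in 137388 sequences for the rat. Of the lines for the mouse, 2535 held a calendar date where a count between 7 and 12 and an identifier had been, and these counts were restored, which supplied 46 of the 289 mouse reads described here. Reads labelled with a mature miRNA name numbered 24016 in mouse sperm (3.36% of listed reads) and 25951 in rat sperm (1.23%). Levels are given as reads per 1000000 of these mature miRNA reads (RPM), so 1 read stands for 41.6 RPM in mouse sperm and 38.5 RPM in rat sperm, and a count of 0 allows up to 3 reads, or 124.9 RPM in mouse sperm and 115.6 RPM in rat sperm. A few short marker lists were read in the same way. All 4 of 4 miRNAs of the male germ cell list (the miR-34b/c and miR-449a group) had reads in each library, 459 in all in mouse sperm and 7139 in rat sperm. The epithelial list (miR-200 and miR-141 group) had 248 reads in mouse sperm and 141 in rat sperm, with 5 of 5 present in each. Most were miR-141-3p (219 in mouse sperm, 107 in rat sperm), while miR-200a-3p went the other way (16 and 24). The rest were near the floor: miR-200b-3p (3 and 2), miR-200c-3p (4 and 3) and miR-429-3p (6 and 5). Stroma and muscle miRNAs had 3062 reads in mouse sperm and 875 in rat sperm, nearly all of miR-143-3p (3026 and 841). The rest of this list had nearly equal reads: miR-145a-5p (15 and 15), miR-199a-3p (17 and 16) and miR-133a-3p (4 and 3). Blood cell miRNAs had 116 reads in mouse sperm and 16 in rat sperm, and miR-486-5p alone gave 99 of these mouse reads and 0 of the rat reads. miR-150-5p and miR-223-3p were at 0 in mouse sperm. The sums of these lists differ between the libraries, for stroma and muscle through miR-143-3p alone. The part of these lists in the members' levels was not tested. In bulk RNA, fewer cells of a type and less RNA per cell cannot be told apart.

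The 2 clusters together had 289 reads in mouse sperm, equal to 1.20% of mature miRNA reads (1.07% to 1.35%), and 206 reads in rat sperm, 0.794% (0.689% to 0.910%). Members were counted under any label, but the base, here and for RPM, holds only reads with a mature miRNA name. Of the member reads, 171 in mouse sperm and 29 in rat sperm lay under a label other than the member's name. These 2 percentages are therefore ratios to the base and not parts of it. miR-17-92 supplied 198 mouse reads (68.5%, 62.8% to 73.8%) and 96 rat reads (46.6%, 39.6% to 53.7%). All reads of miR-92a-3p (167 in mouse sperm, 29 in rat sperm) and miR-19b-3p (21 and 52) were counted under miR-17-92. Both are also made from copies in miR-106a-363, so every share and ratio given for miR-17-92 can include products of those copies. miR-106b-25 supplied the other 91 mouse reads (31.5%) and 110 rat reads (53.4%). The order of the libraries and the balance in mouse sperm turn when reads are counted by deposited name alone: the members then made up 0.491% of mature miRNA reads in mouse sperm and 0.682% in rat sperm, a summed log2 ratio of -0.47, and miR-106b-25 held 66.9% of mouse and 55.4% of rat member reads. On the RPM scale, with 1 RPM added to each level, the log2 ratio of mouse over rat was 1.16 (0.80 to 1.52) for miR-17-92 and -0.16 (-0.58 to 0.25) for miR-106b-25. Scaling to all listed reads in place of mature miRNA reads moves every ratio of levels by 1.45 before the 1 RPM is added, and gave 2.58 for miR-17-92 and 1.27 for miR-106b-25. Without miR-92a-3p, a choice made after its values were seen, miR-17-92 had 31 reads in mouse sperm and 67 in rat sperm, a log2 ratio of -1.0 (-1.66 to -0.37) on the RPM scale and of 0.43 (-0.22 to 1.08) when scaled to all listed reads.

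**Figure D1:**
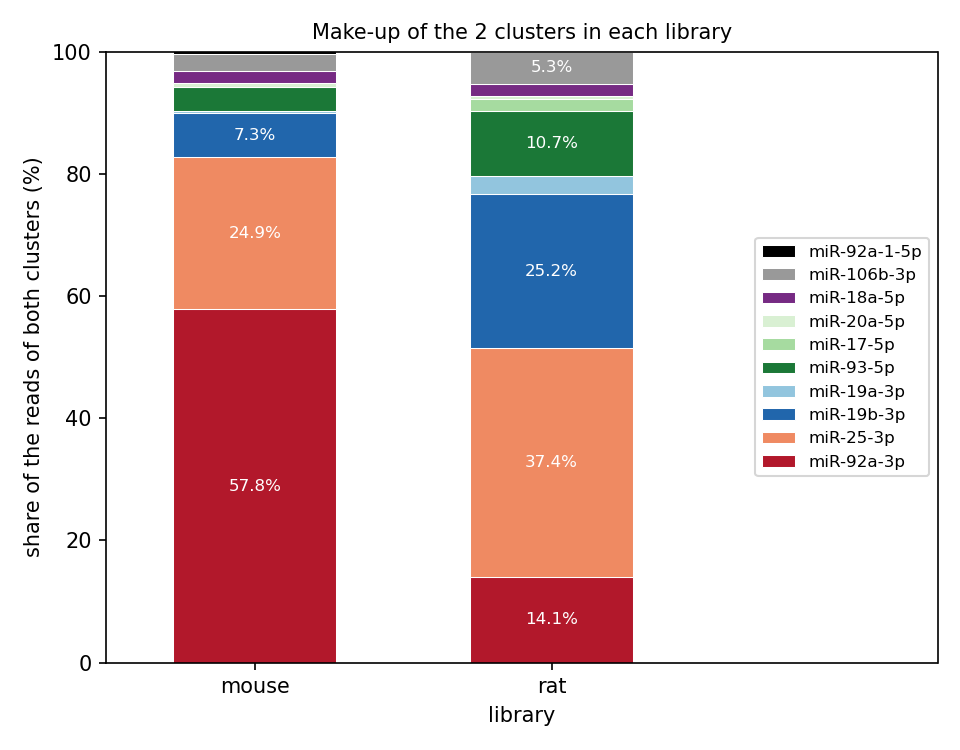
Stacked bars give each miRNA's share of the reads of both clusters (vertical axis, percent) in the mouse library (left) and the rat library (right). miR-92a-3p fills 57.8% of the mouse bar and 14.1% of the rat bar, while miR-19b-3p fills 7.27% and 25.2%.

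By seed, reads of the miR-25/92 seed accounted for 82.7% of mouse member reads (77.8% to 86.9%) and 51.5% of rat ones (44.4% to 58.5%). The miR-19 seed made up 7.61% in mouse sperm (4.83% to 11.3%) and 28.2% in rat sperm (22.1% to 34.8%). For the miR-17 seed the shares were 4.50% in mouse sperm and 13.1% in rat sperm. Shares of 1 total move together, and the 167 mouse reads of miR-92a-3p lower every other mouse share. As levels, the log2 ratio of the miR-17 seed was -0.94 (-2.02 to 0.06) on the RPM scale and 0.47 (-0.57 to 1.51) when scaled to all listed reads, and both intervals include 0. For the miR-19 seed it was -1.29 (-2.07 to -0.56) on the RPM scale and 0.15 (-0.62 to 0.89) under the other scaling. By deposited name the miR-17 seed made up 9.32% in mouse sperm and 13.6% in rat sperm, and the miR-19 seed 17.8% and 32.2%. The miR-25/92 seed then made up 62.7% in mouse sperm (53.3% to 71.4%) and 45.8% in rat sperm (38.3% to 53.4%), and these intervals overlap. The seeds of miR-18 (2.08% in mouse sperm, 1.94% in rat sperm) and miR-106b-3p (2.77% and 5.34%) had overlapping intervals. These shares do not depend on the scaling between libraries, but they do depend on which labels are counted. Under any label, the mouse library held most of its member reads in the miR-25/92 seed, and the rat library about as many outside that seed as in it. By name the gap between the libraries was smaller.

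miR-92a-3p, the last miRNA of miR-17-92, was the most abundant member in mouse sperm and the third in rat sperm. It had 167 reads in mouse sperm (6954 RPM, 5939 to 8092) and 29 in rat sperm (1117 RPM, 748 to 1605), a 6.22-fold higher level in mouse sperm with a log2 ratio of 2.64 (2.06 to 3.26) on the RPM scale and of 3.99 (3.51 to 4.71) when scaled to all listed reads. This direction rests on reads filed under other labels or listed with a mismatch: the log2 ratio was -0.13 by deposited name (11 reads in mouse sperm, 13 in rat sperm) and -1.35 with perfect matches only (11 and 26). The latter filter dropped the most abundant form in mouse sperm and kept the same form in rat sperm. miR-92a-3p made up 84.3% of the miR-17-92 reads in mouse sperm and 30.2% in rat sperm. Among all miRNAs counted by their first 18 nt it ranked 16 in mouse sperm and 59 in rat sperm. Of its mouse reads, 28 had counts restored from dates.

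miR-25-3p, which shares its seed and comes from the other cluster, had nearly the same level in both libraries. It had 72 reads in mouse sperm (2998 RPM) and 77 in rat sperm (2967 RPM), a log2 ratio of 0.01 (-0.47 to 0.50) on the RPM scale and of 1.44 (0.98 to 1.94) when scaled to all listed reads. It led miR-106b-25 in both libraries, with 79.1% of that cluster's reads in mouse sperm and 70.0% in rat sperm. Among the reads of these 2 miRNAs, miR-92a-3p was 69.9% in mouse sperm (63.6% to 75.6%) and 27.4% in rat sperm (19.1% to 36.9%).

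miR-19b-3p, the member of miR-17-92 known as the main driver of its oncogenic activity in mouse lymphoma together with miR-19a, was lower in mouse sperm on the RPM scale, though not when scaled to all listed reads. It had 21 reads in mouse sperm (874 RPM) and 52 in rat sperm (2004 RPM), a log2 ratio of -1.20 (-2.0 to -0.44), against 0.24 (-0.56 to 1.01) under the other scaling. Of its mouse reads, 8 had counts restored from dates, and without all such lines its log2 ratio was -1.86. Its near twin miR-19a-3p had 1 read in mouse sperm and 6 in rat sperm, a log2 ratio of -2.45 whose interval (-8.00 to 0.57) includes 0.

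Of the miR-17 seed, miR-93-5p was the main source, with 11 reads in mouse sperm (458 RPM) and 22 in rat sperm (848 RPM); its log2 ratio of -0.89 (-2.08 to 0.22) includes 0. miR-17-5p, which names the cluster, had 0 reads in mouse sperm and 4 in rat sperm, and the exact upper limit of the 0 is 153.6 RPM. miR-20a-5p had 2 reads in mouse sperm and 1 in rat sperm. miR-92a-1-5p, the other arm of the Mir92-1 hairpin, had 1 read in mouse sperm and 0 in rat sperm. miR-18a-5p had 6 reads in mouse sperm and 4 in rat sperm, and miR-106b-3p had 8 and 11, a log2 ratio of -0.35 (-1.87 to 1.10). At this depth no difference between the libraries was detectable for miR-93-5p, miR-17-5p, miR-20a-5p, miR-18a-5p or miR-106b-3p on the RPM scale.

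**Figure D2:**
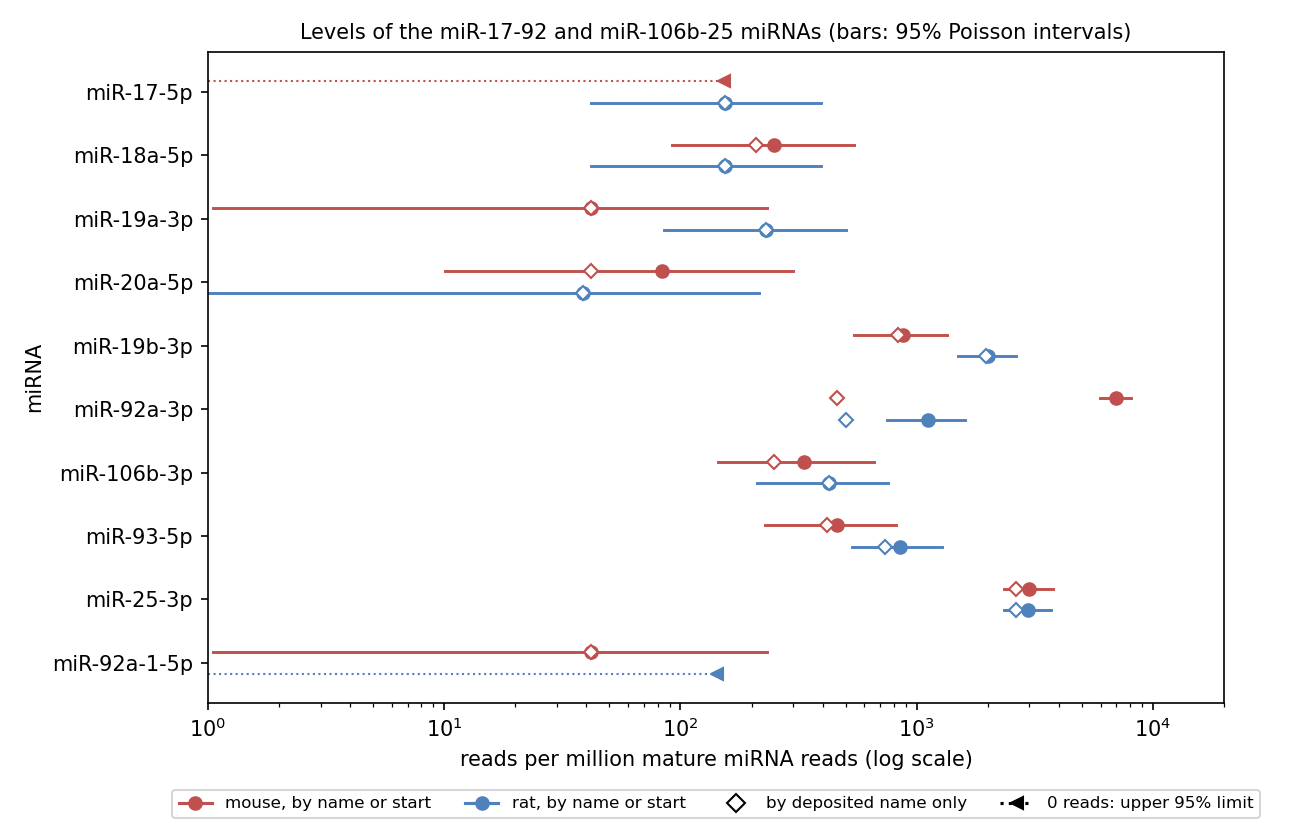
Points give the level of each member in RPM (log axis), the mouse (red) above the rat (blue), with 95% Poisson intervals; white diamonds count deposited names only, and arrows mark the upper limit where no read was found. The mouse point of miR-92a-3p at 6954 RPM lies far from its diamond at 458 RPM, and no other member shows such a gap.

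In order of reads the mouse library ran miR-92a-3p, miR-25-3p, miR-19b-3p and miR-93-5p, and the intervals of the first 3 did not overlap, while from miR-19b-3p on each neighbour overlapped the next. In the rat library the order was miR-25-3p, miR-19b-3p, miR-92a-3p and miR-93-5p, and each overlapped its neighbour. Of 20 other mature arms looked for in both clusters, in miR-106a-363 and in the genes miR-92b and miR-32, 16 had reads in neither library. The exceptions were miR-25-5p (1 read in mouse sperm, 0 in rat sperm), miR-363-3p (0 and 2), miR-92b-3p (1 and 3) and miR-32-5p (0 and 1). For miR-106b the read arm was the 3p arm, and its 5p arm, which carries the miR-17 seed, had 0 reads in each library. miR-106a, miR-18b and miR-20b, members of the X-linked cluster, also had 0 reads in each.

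Read against all miRNAs, a 2-fold gap between these libraries was common. Of 102 miRNA starts that had 10 reads or more in 1 library, 28.4% were at least 2-fold higher in mouse sperm, 34.3% at least 2-fold lower, and 62.7% past this fold in either direction. Of the 5 members with 10 reads, 1 was past it on each side, miR-92a-3p higher and miR-19b-3p lower, so the members' count is not above this background. The median log2 ratio was -0.35 over these 5 and -0.15 over all 102. The 3 miRNAs whose levels in the 2 libraries lay closest to those of miR-92a-3p, by distance on the log2(RPM + 1) scale, were miR-196b-5p (107 reads in mouse sperm and 26 in rat sperm, distance 0.661), let-7f-5p (161 and 68, 1.23) and miR-872-5p (132 and 72, 1.35).

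**Figure D3:**
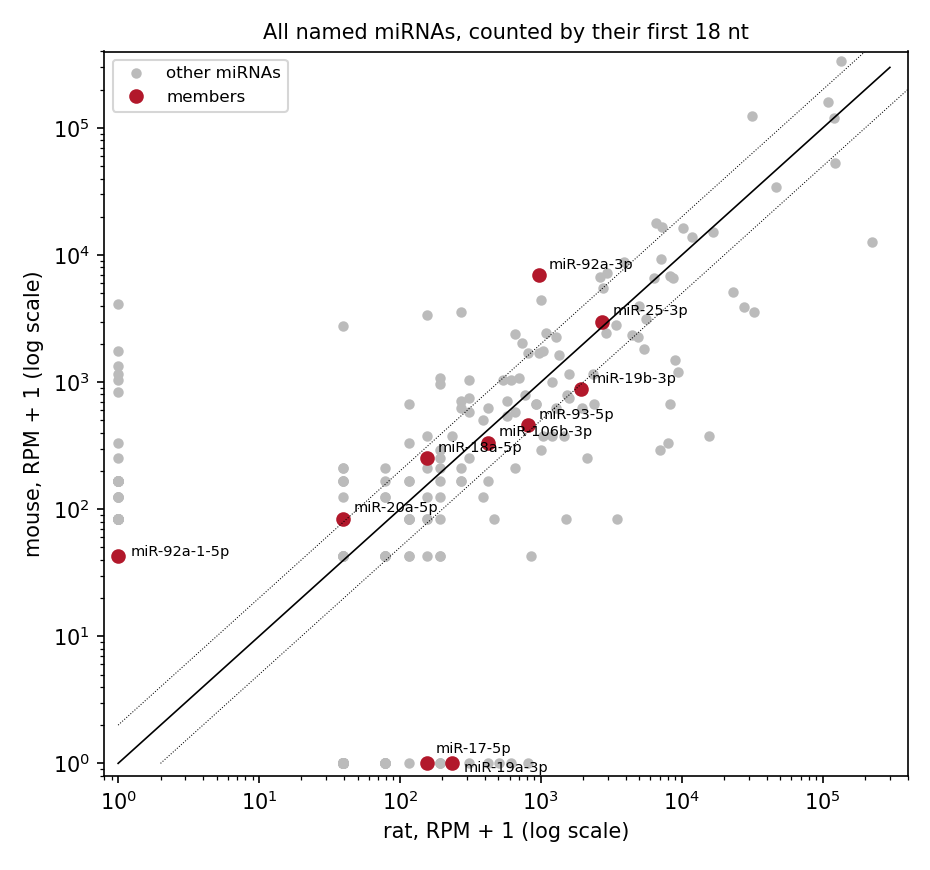
Each point is a named miRNA counted by its first 18 nt, with its level in mouse sperm (vertical) and rat sperm (horizontal) as RPM + 1 on log axes; red points are the members, the solid line marks equal levels and dotted lines a 2-fold gap. miR-92a-3p lies above the upper dotted line, miR-25-3p on the solid line and miR-19b-3p below the lower dotted line.

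The level of miR-92a-3p in mouse sperm depended on how its reads had been labelled. Only 12 of its 167 mouse reads carried a mature miRNA name, and 11 of these carried its own name. A further 117 were filed under the Rfam family mir-92, 21 under microRNA entries of GenBank and 17 under GenBank entries of unknown class. In rat sperm, 13 of 29 carried the name and 16 lay under GenBank microRNA entries. Counted by name alone, its log2 ratio of -0.13 had an interval that includes 0 (-1.43 to 1.15). Among all 100 miRNAs with 10 reads by name, 38% were at least 2-fold higher in mouse sperm, 34% at least 2-fold lower and 72% past the fold on either side; of 5 members, 0 were higher and 1, miR-19b-3p, lower. Over all members, 171 of 289 mouse reads (59.2%, 53.3% to 64.9%) and 29 of 206 rat reads (14.1%) lay under a label other than the member's name. Of these, miR-92a-3p gave 156 in mouse sperm and 16 in rat sperm, so the mouse share is mostly that of 1 member. Over all miRNA starts with 10 reads or more in the library, a minimum not set for the members, 15.7% of reads in mouse sperm and 14.9% in rat sperm lay under another label. Counted by start, 16 of 82 in mouse sperm (19.5%) and 21 of 85 in rat sperm (24.7%) lay mostly under another label. Being filed mostly elsewhere is thus not particular to miR-92a-3p.

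The miR-92a-3p reads filed elsewhere were mostly longer forms of the same miRNA. Abundant forms are given with bases past the RefSeq end in capitals; 1 more mouse form also had 10 reads.
mouse miR-92a-3p, 99 reads: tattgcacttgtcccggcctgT
mouse miR-92a-3p, 16 reads: tattgcacttgtcccggcctgTAT
mouse miR-92a-3p, 10 reads: tattgcacttgtcccggcctgTT
rat miR-92a-3p, 12 reads: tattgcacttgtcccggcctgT
rat miR-92a-3p, 7 reads: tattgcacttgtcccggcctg
rat miR-92a-3p, 3 reads: attgcacttgtcccggcctg

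The 2 mouse genes for miR-92a-3p part just past the mature end, so the longer forms can be set against each copy. The hairpins are shown from the first base of miR-92a-3p, with base 22 in capitals; the genes lie at chr14:115044476-115044503 (plus strand) and chrX:52741847-52741874 (minus strand) over this stretch, in GRCm38.p6.
Mir92-1: uauugcacuugucccggccugUugaguu
Mir92-2: uauugcacuugucccggccugAggaaga

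Counted from the first base of the mature miRNA, they first differ at bases 22 and 23, by U22A and U23G with Mir92-1 first, and over the stretch shown also by G26A, U27G and U28A. Of 156 mouse reads that reached base 22, 152 (97.4%, 93.6% to 99.3%) had the base of Mir92-1 there and 0 that of Mir92-2, with an exact upper limit of 2.34%. In rat sperm, 16 of 16 reads had the base of mouse Mir92-1. That base is T, and a T added after base 21 of a product of either copy would read the same. Tails of T only were present in 24 mouse and 25 rat member reads, so a read ending at base 22 cannot be assigned to 1 copy, and the copy of origin was not tested. The tables list a base that differs from the matched entry as a mismatch, and 114 mouse reads carried A22T against the Rfam entry they had been assigned to. For 109 of the 167 mouse reads the listed mismatches past base 18 matched the Mir92-1 hairpin in full. The most abundant form, of 22 nt, was listed with 1 mismatch in mouse sperm (99 reads) and with 0 in rat sperm (12 reads). Keeping perfect matches only thus removed the same sequence from the mouse library and kept it in the rat library. The log2 ratio of miR-92a-3p was then -1.35 (-2.52 to -0.29), turned in direction by unlike matched entries, so it does not compare like reads.

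**Figure D4:**
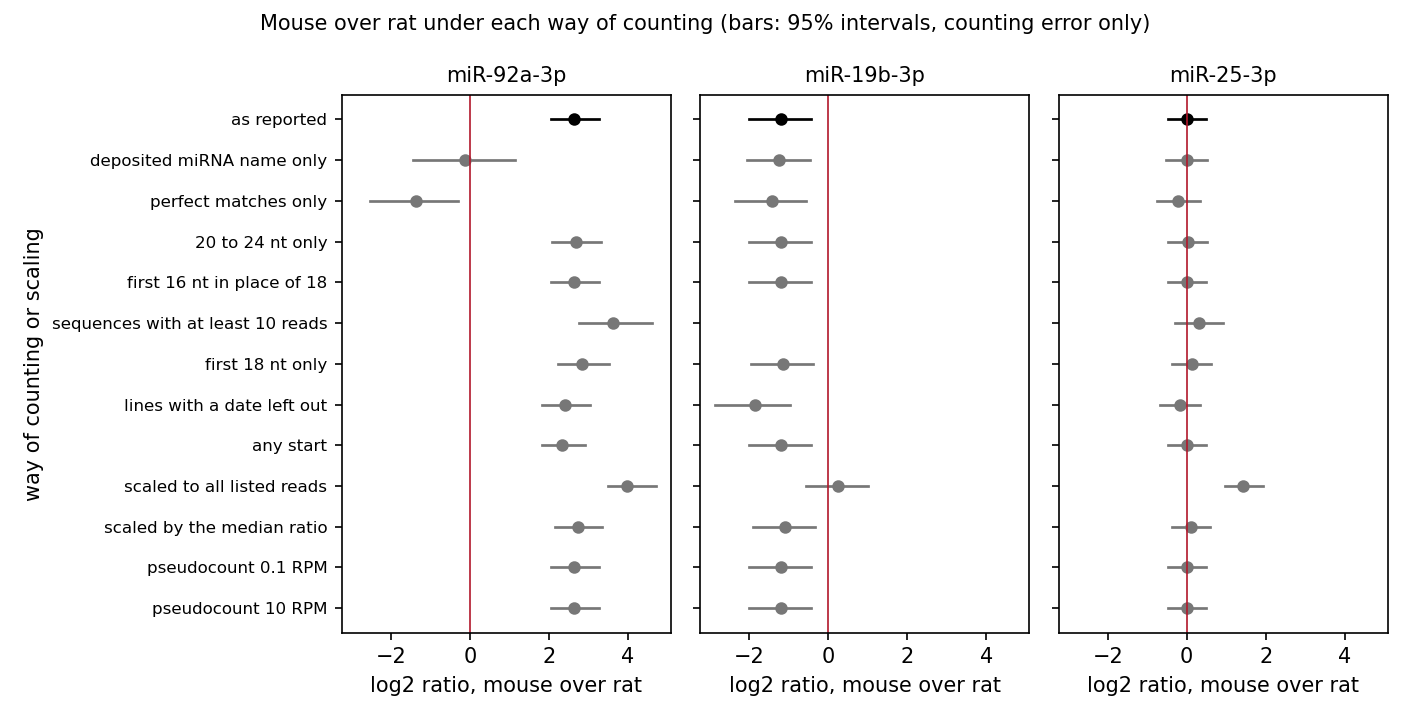
Points give the log2 ratio of mouse over rat (horizontal) for 3 miRNAs under each way of counting or scaling (vertical), with 95% intervals for counting error and a red line at equal levels. miR-92a-3p crosses to the left of the line by name only (-0.13) and with perfect matches only (-1.35), and miR-19b-3p crosses to the right when scaled to all listed reads (0.24).

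At the 5′ end the members kept the annotated start, which fixes the seed. All 289 mouse reads began there, and 201 of 206 rat reads (97.6%) did; the other 5, 3 of miR-92a-3p and 2 of miR-25-3p, began 1 base later. Because membership is set by name or by the first 18 nt, reads with another start were kept only under a member's name. A search for bases 3 to 18 of each mature miRNA within a few bases of the 5′ end of a read added 3 reads in mouse sperm and 12 in rat sperm. Starts further away were not looked for.

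The 3′ ends varied more. A read was taken to reach the annotated 3′ end by its length, whatever its last bases. This held for 72 of 289 mouse reads (24.9%, 20.03% to 30.3%) and 120 of 206 rat reads (58.3%). Of these, 10 in mouse sperm and 28 in rat sperm carried last bases that are in no hairpin, which leaves 21.5% of mouse reads and 44.7% of rat reads with the annotated end itself. Reads ran past it in 59.2% in mouse sperm and 14.1% in rat sperm. miR-92a-3p carried most of this: 156 of 167 mouse reads (93.4%, 88.5% to 96.7%) and 16 of 29 rat reads (55.2%, 35.7% to 73.6%) ran past the end. In miR-25-3p the full-length form of 22 nt led in both libraries, with 41 reads in mouse sperm and 45 in rat sperm, and 56.9% of mouse reads and 66.2% of rat reads had the annotated end with no such bases. miR-19b-3p lay 1 base short of it in 38.1% of reads in mouse sperm and 53.8% in rat sperm. miR-93-5p ended 2 bases short in 6 of 11 mouse reads and 1 of 22 rat reads, while 3 of 11 mouse reads and 18 of 22 rat reads reached the annotated length. Of those 18 rat reads, 10 ended in bases that are in no hairpin, so the annotated end itself was present in 3 of 11 mouse reads (27.3%, 6.02% to 61.0%) and 8 of 22 rat reads (36.4%, 17.2% to 59.3%), and these intervals overlap.

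**Figure D5:**
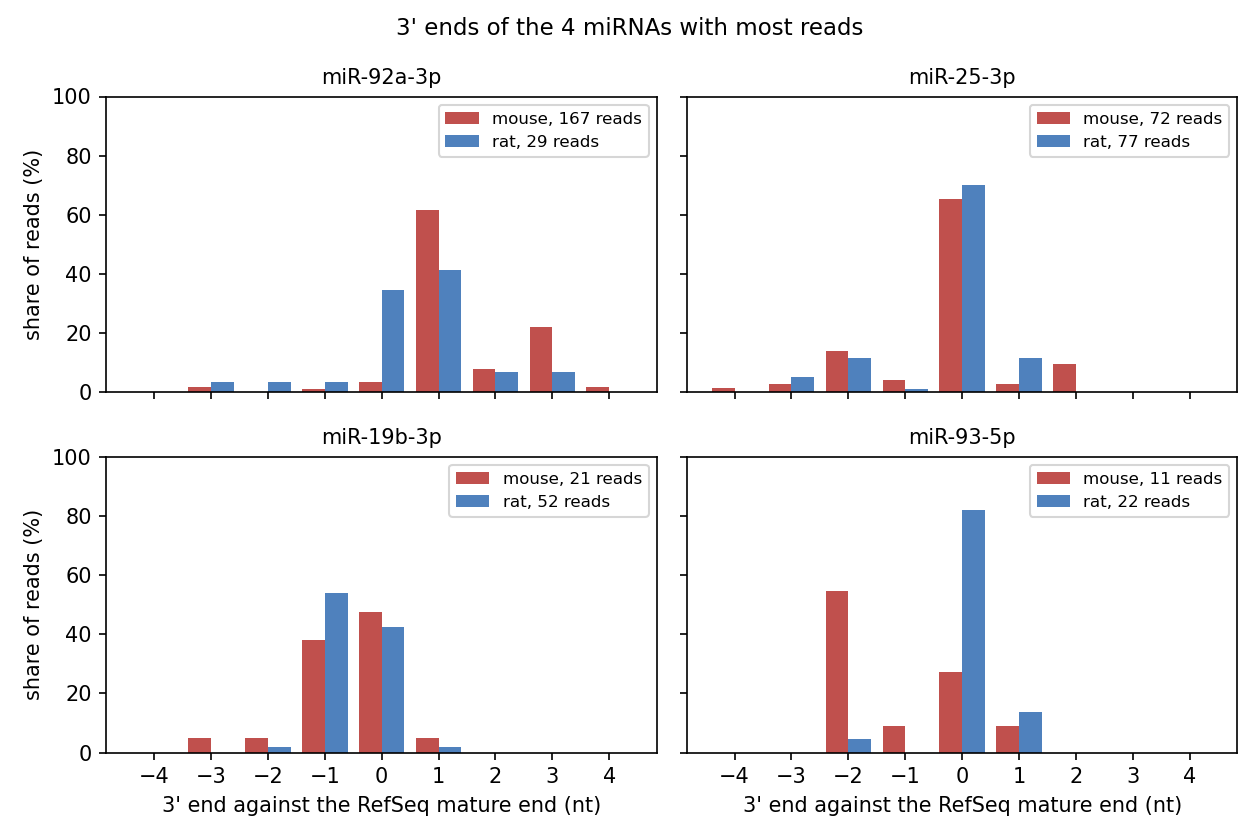
Bars give the share of reads (vertical axis, percent) by the distance of their 3′ end, by length, from the RefSeq mature end in nt (horizontal axis, 0 at the annotated end), mouse left of rat, for the 4 miRNAs with most reads. For miR-92a-3p the tallest mouse bar, 61.7%, stands 1 base past the annotated end.

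Some 3′ bases were in no hairpin of the miRNA. Such a tail was present in 68 of 289 mouse reads (23.5%) and 43 of 206 rat reads (20.9%). Tails of T only made up 24 reads in mouse sperm and 25 in rat sperm, tails of A only 16 and 14, and tails of both bases 20 in mouse sperm and 1 in rat sperm. Of the mouse tails, 47 were on miR-92a-3p, where 2 of 29 rat reads had one. Of miR-93-5p, 0 of 11 mouse reads and 12 of 22 rat reads (54.5%, 32.2% to 75.6%) had one. In several forms the tail stood in place of the last base, with the length kept. Counted from the 5′ end of the read, A23T was listed in 2 mouse reads and 8 rat reads that carried the name miR-19b-3p, and G23T in 0 mouse reads and 8 rat reads of miR-93-5p.

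Mismatches within the body of the miRNA were few. Mismatches to the matched entry were listed in 180 of 289 mouse reads (62.3%) and 51 of 206 rat reads (24.8%), but in bases 1 to 18 in 3 mouse reads and 8 rat reads. The matched entry was not always the member itself. Set against the member's own mouse RefSeq hairpin, 1 mouse read and 8 rat reads had another base in the first 18. From base 19 on, mismatches to the matched entry were listed in 178 mouse reads and 44 rat reads. Of those, 110 in mouse sperm and 1 in rat sperm had only bases that left no tail against the RefSeq hairpin. Among the 180 mouse reads and 51 rat reads with any listed mismatch, miR-92a-3p supplied 156 and 3. Its 22 nt form was listed with 1 mismatch in mouse sperm (99 reads) and with 0 in rat sperm (12 reads). The gap between the libraries in listed mismatches is thus not a trait of the members as a group.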

How the data were processed

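Small RNA of mouse and rat cauda sperm was measured in 1 library each. Per the file headers, the deposited values are read counts per distinct sequence with an annotation label and up to 2 mismatches to the matched entry; the sources used here state neither adapter trimming nor what each tool did. The submitters' processing notes list the genome builds mm9 and rn5 and the tool Bowtie 0.12.7. In the mouse table, dates stood in 2535 lines; the month gave the count and the year the last digits of the identifier, and the restored counts ran in falling order with 0 exceptions. The restoring step recovered every count of a simulated table. Its dates were written by the same rule, so this tests the code and cannot show that the deposited dates arose that way. Reads printed from the minus strand were turned round.

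Members were all reads with a member's name or with the same first 18 nt as its top sequence; the design written at the start described the shared start only. The members and marker lists were chosen with earlier results of these data known. Named miRNAs were all members, the rest of miR-106a-363, miR-92b, miR-32 and the 3 miRNAs nearest to the most abundant member. Counts were scaled to mature miRNA reads; ratios had exact conditional binomial intervals, counts Poisson and shares Clopper-Pearson intervals at 95%. A log2 ratio of 1 among miRNAs with 10 reads in either library set the fold; ratios and distances used a pseudocount of 1 RPM. 3′ ends were set against mouse RefSeq sequences in both species; a tail began at the first base from 19 on after which at least as many bases differed from the hairpin as matched it. Alternatives were names only, perfect matches, 20 to 24 nt, 16 nt starts, 10 reads per sequence, scaling to all listed reads or by the median ratio, pseudocounts of 0.1 and 10, and 3 ways of counting added after seeing the data. Python 3.11.15, NumPy 2.4.6, SciPy 1.17.1 and Matplotlib 3.10.9 were used.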

Additional observations from a re-analysis of the deposited data

How the results depend on the processing

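No paired analysis was possible because each species had 1 library. The main limits are the small number of member reads and the missing replicates. By deposited name only, the members made up 0.491% of mature miRNA reads in mouse sperm and 0.682% in rat sperm, miR-106b-25 held 66.9% and the miR-25/92 seed 62.7% of the mouse reads, 10.2% of mouse reads had a mismatch, 1 member passed the 2-fold limit, and the log2 ratio was -0.47 for all members summed (against 0.60, 0.34 to 0.87) and -0.13 for miR-92a-3p. With perfect matches only, the values were 0.485% in mouse sperm, 67.9% for miR-106b-25, 62.4% for the miR-25/92 seed, -0.62 for all members and -1.35 for miR-92a-3p. Of the 167 mouse reads of miR-92a-3p, 156 carry a mismatch and leave by construction, while its most abundant form is listed as a perfect match in rat sperm and stays. With sequences of at least 10 reads, the members were 0.835% in mouse sperm and 0.395% in rat sperm, the miR-25/92 seed 100% and 59.4%, reads with a mismatch 72.6% and 0%, rat reads at the annotated 5′ end 100%, and the summed log2 ratio 1.08. With all listed reads as the base, the members were 0.0405% in mouse sperm and 0.00980% in rat sperm, and the log2 ratio was 2.03 for all members and 0.24 for miR-19b-3p, by the shift given above. Of the alternatives added after seeing the data, leaving out the lines with dates gave 1.03% in mouse sperm, and allowing other starts near the annotated one gave 93.1% of rat reads at the annotated 5′ end. Leaving out miR-92a-3p gave a log2 ratio of -0.43 for all members and of -1.0 for miR-17-92. Where no construction is named, the cause was not tested.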
